A study of Mus musculus with 8 samples.

Results

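The genes described here encode the subunits of the receptors for glutamate and GABA, the main excitatory and inhibitory transmitters of the brain. They were taken from the arrays by gene name: AMPA (Gria), kainate (Grik), NMDA (Grin), delta (Grid) and metabotropic glutamate (Grm) receptors, and the GABA-A (Gabra, Gabrb, Gabrg, Gabrd, Gabre, Gabrp, Gabrq, Gabrr) and GABA-B (Gabbr) receptors. The name pattern took 48 genes on 77 probes, of 30420 gene names on 39429 non-control probes. Of these, 47 were receptor subunit genes, 37 ionotropic and 10 metabotropic, and the other, Grid2ip, encodes a scaffold protein of delta receptors. Brains were taken from mice without food for 17 h (fasted) or with food for those 17 h (fed), 4 samples of each, and every sample was read on its own single-colour array. Strain, sex, age and the number of mice behind each sample are not given in the sources used here, so the p-values reflect only how far these samples scatter, and that scatter may be technical. The question asked of these genes is whether food deprivation goes with other levels of receptor mRNA, and whether it does so alike for channels and G protein-coupled receptors.

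Ionotropic receptors are ion channels that open when the transmitter binds: AMPA, kainate and NMDA receptors pass cations and excite the cell, and GABA-A receptors pass chloride and inhibit it. Metabotropic receptors act through G proteins. Groups II and III of the metabotropic glutamate receptors and the GABA-B receptor couple to inhibitory G proteins and lower transmitter release at many terminals, and group I couples to phospholipase C. Every channel is built from several subunits, so the set of subunits a cell makes sets how the channel behaves.

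Fasted brain had less mRNA of Grm3, Grm4 and Grm2, the group II and III metabotropic glutamate receptors mGlu3, mGlu4 and mGlu2, by 1.35-fold, 1.28-fold and 1.15-fold. It had more mRNA of the GABA-B subunit Gabbr2 (1.30-fold), of the NMDA subunits Grin2a (1.27-fold) and Grin2c (1.15-fold), of the AMPA subunit Gria1 (1.13-fold) and of the GABA-A subunit Gabrg1 (1.13-fold). The GABA-A subunit Gabrr2 was 1.12-fold lower. These 9 genes, 5 higher and 4 lower, passed an adjusted p of 0.05 (limma, Benjamini-Hochberg over all probes tested), of the 44 member genes that could be measured. That is 20.5%, beside 18.4% of all 15995 genes tested, of which 9.46% were higher and 8.96% lower, so the share is close to that of the whole array. At the level of probes 12 of 68 passed (17.6%), 6 in each direction, beside 16.9% of all probes. The share of all genes with an unadjusted p under 0.05 was not computed, so counts on that measure below have no background beside them. The median log2 difference of the 44 genes was 0.02, and that of all genes tested -0.01. In RNA from brain tissue, fewer cells of a type and less RNA per cell cannot be told apart.

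Values are log2 signals after subtraction of each array's 75th percentile, called scaled log2 signal here, and a difference is fasted minus fed on that scale. The scale sets arrays against each other for 1 probe and does not rank genes by abundance. An array had 24567 to 27220 probes well above background (62.3% to 69.0%) and no saturated spot. A pair of slides held the arrays, with 2 fasted and 2 fed on each. The fasted ones were at positions 1 and 3 and the fed ones at positions 2 and 4, and position cannot be told apart from fasting. The number of arrays limits the precision: the standard error of a member's difference was 0.05 at the median and ranged from 0.03 to 0.17.

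Measured on at least 4 of the 8 arrays, the filter used here, were 34 of 37 ionotropic and 9 of 10 metabotropic genes. Gabra6, the GABA-A subunit of cerebellar granule cells, Gabrp (pi), Gabrr3 (2 probes) and Grm6, the receptor of retinal bipolar cells, were well above background on 0 of the 8 arrays.

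**Figure D1:**
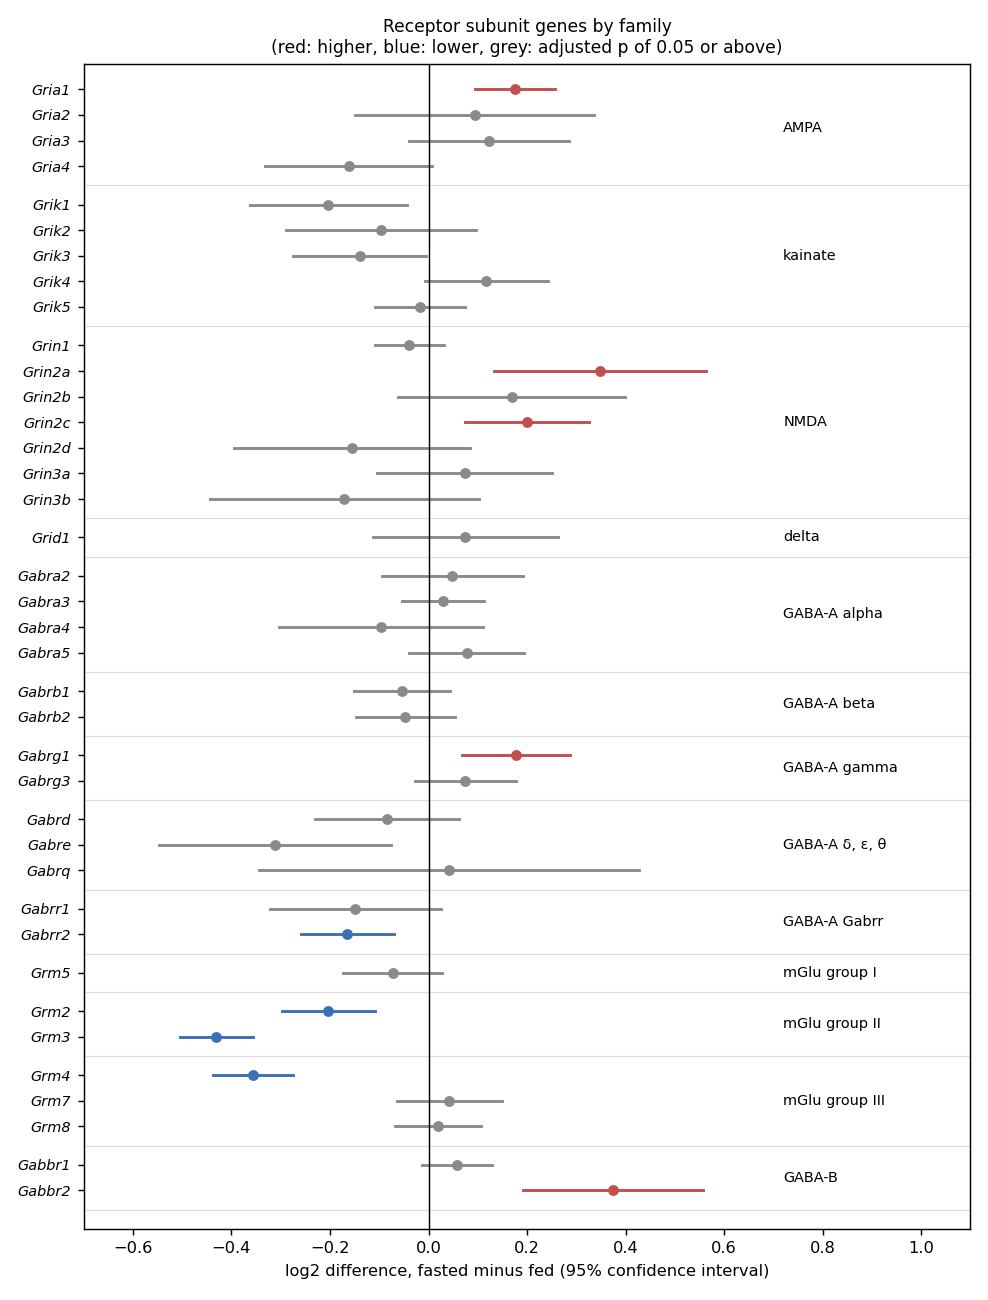
Each point is the log2 difference (fasted minus fed) of 1 of 38 receptor subunit genes and each line its 95% confidence interval from 4 arrays per group. The 5 genes that passed in the upward direction lie in the AMPA, NMDA, GABA-A gamma and GABA-B families, and the 4 that passed downward in the Gabrr family and in groups II and III of the metabotropic glutamate receptors.

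Group II receptors, which inhibit adenylyl cyclase, were both lower in fasted brain. The stretches of 250 bases before the annotated starts of Grm3 and Grm2 are shown as those of the group II genes. That of Gabbr2, the metabotropic member that rose, is shown for contrast. No such stretch was held for Grm4, which also fell. The printed stretches come from RefSeq on GRCm38.p6 and are written 5′ to 3′ on the gene's strand, the minus strand for all 3. Capitals mark the GC box, GGGCGG or its reverse complement CCGCCC. The positions are chr5:9725353-9725602, chr9:106656110-106656359 and chr4:46991715-46991964, in the order printed.
Grm3: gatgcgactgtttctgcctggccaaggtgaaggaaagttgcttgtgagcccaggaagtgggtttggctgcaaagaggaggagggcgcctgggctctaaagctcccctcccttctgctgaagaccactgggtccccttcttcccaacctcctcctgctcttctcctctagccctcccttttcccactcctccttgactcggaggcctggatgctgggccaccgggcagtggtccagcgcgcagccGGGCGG
Grm2: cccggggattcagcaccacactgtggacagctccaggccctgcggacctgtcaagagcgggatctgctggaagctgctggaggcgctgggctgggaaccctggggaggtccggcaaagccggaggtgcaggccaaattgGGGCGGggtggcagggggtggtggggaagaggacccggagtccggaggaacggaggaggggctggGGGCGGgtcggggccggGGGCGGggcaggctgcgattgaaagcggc
Gabbr2: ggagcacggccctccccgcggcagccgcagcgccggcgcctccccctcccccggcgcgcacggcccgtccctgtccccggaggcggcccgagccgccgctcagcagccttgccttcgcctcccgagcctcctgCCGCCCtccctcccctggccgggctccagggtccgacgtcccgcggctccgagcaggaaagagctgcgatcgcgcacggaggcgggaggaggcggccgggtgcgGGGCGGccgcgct
The Grm3 stretch held 1 GC box, at its very end, the Grm2 stretch 3 and the Gabbr2 stretch 2. A match to these letters is a description of the sequence and not a site in use.

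Grm3 encodes mGlu3, found on neurons and strongly on astrocytes. Its scaled log2 signal was -0.19, -0.25, -0.20 and -0.17 in fasted replicates 1 to 4 and 0.23, 0.25, 0.25 and 0.18 in fed replicates 1 to 4. All fasted arrays lay below all fed arrays, and the gap between the groups was wider than the range within either. The difference was -0.43 ± 0.03 (SE over 4 arrays a group; limma adjusted p = 0.000792), a 1.35-fold lower level with a 95% confidence interval of 1.28 to 1.42. The probe (NM_181850) lies at chr5:9485369-9485428 of mm9, to which the array design refers. It was the farthest of all 44 members from 0.

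Grm2 encodes mGlu2, mostly a presynaptic autoreceptor. It gave -1.03, -1.01, -1.06 and -0.97 in the fasted replicates and -0.90, -0.75, -0.82 and -0.80 in the fed replicates. The groups did not overlap, and fed replicate 1 lay nearest to the fasted arrays. The difference was -0.20 ± 0.04 (SE over 4 arrays a group; limma adjusted p = 0.0151), 1.15-fold lower (95% confidence interval 1.08 to 1.23). The probe (NM_001160353) lies at chr9:106547222-106547281 of mm9.

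Of group III, presynaptic receptors that limit glutamate release, 1 of 3 measured genes changed, beside 18.4% of all genes tested. Grm4 encodes mGlu4, known best from the synapses of cerebellar granule cells. It gave -1.44, -1.43, -1.54 and -1.46 in the fasted replicates and -1.09, -1.09, -1.15 and -1.11 in the fed replicates. The groups did not overlap, and the lowest array of each was replicate 3. The difference was -0.36 ± 0.04 (SE over 4 arrays a group; limma adjusted p = 0.00152), 1.28-fold lower (95% confidence interval 1.21 to 1.35), on a probe (NM_001013385) at chr17:27571527-27571586 of mm9. A second probe of the same transcript, at chr17:27559349-27559408, gave -3.32, -3.10, -3.06 and -2.96 in fasted and -2.57, -2.55, -2.44 and -2.42 in fed brain, a difference of -0.61 ± 0.08 (SE; limma adjusted p = 0.00327). Both probes thus fell, and on neither did the groups overlap.

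The other group III genes did not pass: Grm7, the receptor of the active zone, gave 0.04 (95% confidence interval -0.06 to 0.15) and Grm8 gave 0.02 (-0.07 to 0.11). Of the group I genes, postsynaptic receptors that raise intracellular calcium, Grm5 gave -0.07 (-0.17 to 0.03). For group I, limma called 0 of 2 genes and 0 had an unadjusted p under 0.05. Over all genes tested 8.96% passed as lower and 9.46% as higher. Over groups II and III, 3 of 5 measured genes fell and 0 rose, with a median of -0.20. These groups were set out by textbook class and with earlier results of these arrays known, so the count describes them and is not independent evidence.

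One probe of Grm5 did change. It matches the transcript record NM_001081414, at chr7:94732759-94732818 of mm9, and gave -2.02, -1.94, -1.99 and -1.88 in fasted and -1.65, -1.58, -1.73 and -1.73 in fed brain. The groups did not overlap, and the difference was -0.28 ± 0.05 (SE over 4 arrays a group; limma adjusted p = 0.00838). The brightest probe of the gene, at chr7:95282581-95282640, gave -0.07 (adjusted p = 0.282) and the other, at chr7:95279335-95279394, gave -0.04 (adjusted p = 0.813). The difference between these probes was not tested.

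The GABA-B receptor is a dimer: Gabbr1 binds GABA and Gabbr2 couples to the G protein. Gabbr2 gave 0.74, 0.73, 0.93 and 0.78 in the fasted replicates and 0.59, 0.32, 0.49 and 0.27 in the fed replicates. The groups did not overlap, and the fed arrays spread more widely, with fed replicates 2 and 4 lowest. The difference was 0.38 ± 0.08 (SE over 4 arrays a group; limma adjusted p = 0.0176), 1.30-fold higher (95% confidence interval 1.14 to 1.47), on a probe (NM_001081141) at chr4:46677374-46677433 of mm9. A second probe, whose 2 ends lie at chr4:46731752-46737186, gave 0.33 ± 0.06 (SE; limma adjusted p = 0.0102). The remaining one, at chr4:46677030-46677089, gave 0.06 (limma adjusted p = 0.514). Of 3 probes of Gabbr2, 2 therefore passed. Gabbr1 differed by 0.06 (95% confidence interval -0.01 to 0.13; limma adjusted p = 0.233) and by 0.08 and -0.04 on its other probes, and none passed.

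**Figure D2:**
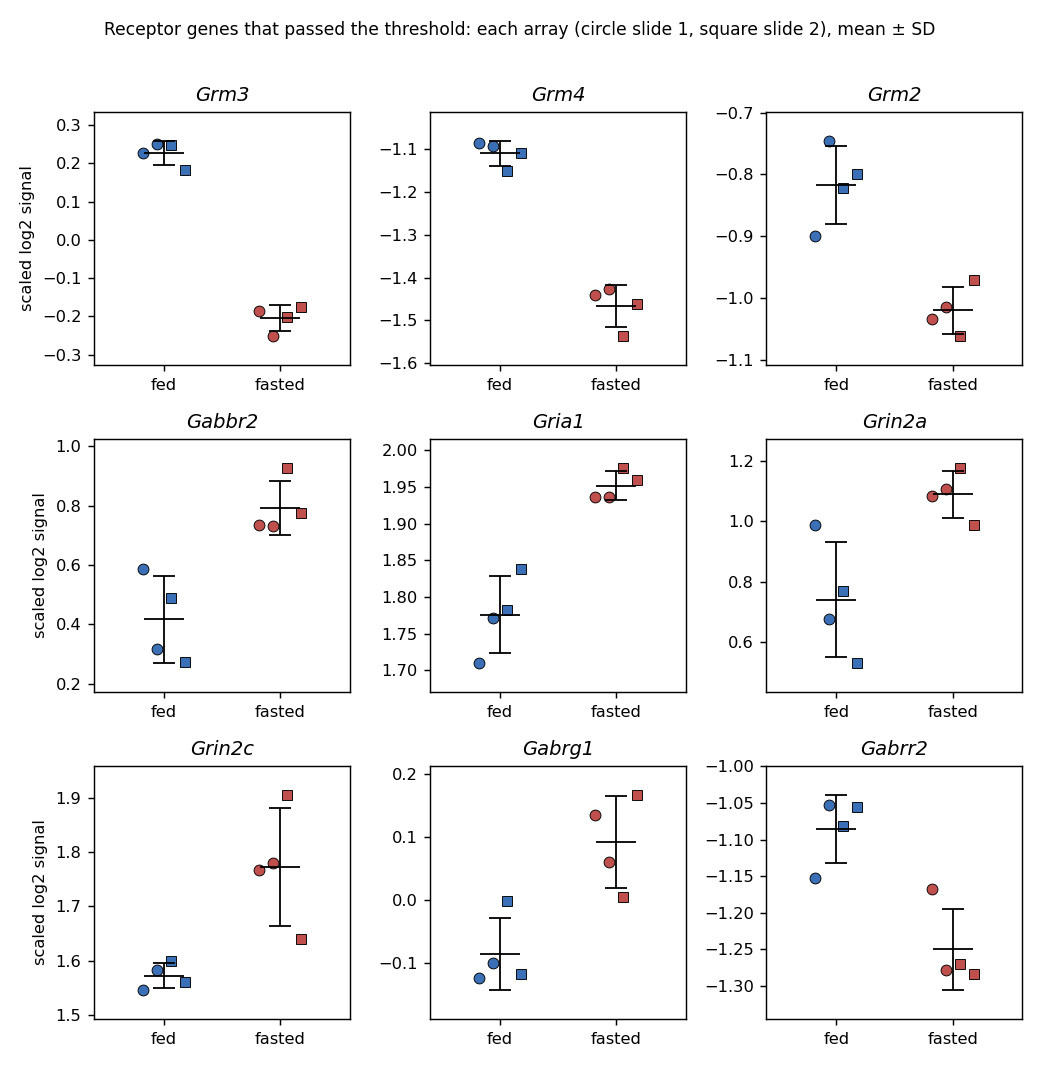
Scaled log2 signal of the 9 receptor genes that passed, with 1 marker per array (circles slide 1, squares slide 2) and mean ± SD of 4 arrays; each panel has its own vertical axis, which does not start at 0. In all 9 panels the fasted arrays lie entirely to one side of the fed arrays, with a wide gap for Grm3 and Grm4 and almost none for Grin2a, Gabrg1 and Gabrr2.

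NMDA receptors need the obligatory subunit Grin1, and their Grin2 subunits set channel kinetics. Of 7 genes, 2 rose and 0 fell, with a median of 0.07, beside 9.46% higher and 8.96% lower over all genes tested. Grin2a, the subunit that dominates in the mature forebrain, gave 1.09, 1.11, 1.18 and 0.99 in fasted and 0.99, 0.68, 0.77 and 0.53 in fed brain. Fasted replicate 4 lay just above fed replicate 1, so the groups are separate by less than 0.01. The difference was 0.35 ± 0.09 (SE over 4 arrays a group; limma adjusted p = 0.0392), 1.27-fold higher (95% confidence interval 1.1 to 1.48), on a probe (NM_008170) at chr16:9577803-9577862 of mm9. A second, dimmer probe of the same transcript, at chr16:9579338-9579397, gave 0.02 ± 0.08 (SE; adjusted p = 0.862). The call was lost when any 1 array other than fed replicate 1 was left out, with adjusted p from 0.0559 to 0.0952.

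Grin2c, most abundant in cerebellum and also made by astrocytes, gave 1.77, 1.78, 1.91 and 1.64 in fasted and 1.55, 1.58, 1.6 and 1.56 in fed brain. The fed arrays lay close together, and all fasted arrays lay above them. The difference was 0.20 ± 0.05 (SE over 4 arrays a group; limma adjusted p = 0.0419), 1.15-fold higher (95% confidence interval 1.05 to 1.25), at chr11:115110483-115110542 of mm9 (NM_010350). The call was lost when any 1 array other than fasted replicate 4 was left out (adjusted p 0.0553 to 0.0929), and with slide as a block (0.0519).

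The other 5 NMDA genes did not pass. Grin1 differed by -0.04 with a narrow 95% confidence interval of -0.11 to 0.03. Grin2b, the subunit of the developing brain that stays prominent in forebrain, gave 0.17 (-0.06 to 0.40). Its 2 lowest arrays were fed replicates 2 and 4, at 1.30 and 1.27, as they were for Grin2a and Gabbr2. Grin2d gave -0.16 (-0.40 to 0.08), Grin3a 0.07 (-0.10 to 0.25) and Grin3b -0.17 (-0.44 to 0.10). A rise of the size seen for Grin2c lies within the intervals of Grin2b and Grin3a. It lies above those of Grin2d and Grin3b, which do hold a fall of that size.

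AMPA receptors carry most fast excitation, and 1 of their 4 genes passed, beside 18.4% of all genes tested. Gria1, the subunit GluA1 that enters synapses during potentiation, gave 1.94, 1.94, 1.98 and 1.96 in fasted and 1.71, 1.77, 1.78 and 1.84 in fed brain. The fasted arrays lay within 0.04 of each other and above all fed arrays. The difference was 0.18 ± 0.04 (SE over 4 arrays a group; limma adjusted p = 0.0145), 1.13-fold higher (95% confidence interval 1.07 to 1.2), at chr11:57143613-57143672 of mm9 (NM_001113325).

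Gria2 encodes GluA2, which blocks calcium entry through the channel, and it gave 0.16, 0.14, -0.32 and 0.13 in fasted and -0.05, -0.12, -0.10 and -0.01 in fed brain. The difference of 0.09 ± 0.11 (SE; limma adjusted p = 0.580) did not pass. Fasted replicate 3 lay below every other array, and the other 3 fasted arrays lay above every fed array. Without that array the difference was 0.21 (adjusted p = 0.0165), and over all settings tried the adjusted p ranged up to 0.922. Gria3 behaved likewise: fasted replicate 3 was lowest at 1.30 beside 1.56 to 1.62 in the other fasted arrays, and its difference was 0.12 (adjusted p = 0.267) with all arrays and 0.19 (0.0191) without that one, reaching 0.738 under another setting. Gria4 differed by -0.16 (95% confidence interval -0.33 to 0.01; adjusted p = 0.170), with groups that did not overlap and fasted replicate 3 lowest, at 0.92. On the other probes Gria2 gave -0.02, Gria3 0.08 and Gria4 0.00. Fasted replicate 3 also had the lowest signal of the olfactory bulb markers Doc2g, at -2.60 beside -1.82 to 0.22 in the other arrays, and Eomes, at -5.55 beside -4.75 to -1.99. The other marker of that list, Trh, was 1.01 there, beside 0.62 to 1.43 in the other arrays, and so was not lowest. Fed replicate 4 was highest on all 3 markers. The part of that array's tissue content in these values was not tested.

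Of the 5 kainate receptor genes, which act on both sides of the synapse, limma called 0, and 2 had an unadjusted p under 0.05. These were Grik1, at -0.20 ± 0.07 (SE; limma adjusted p = 0.0817), and Grik3, at -0.14 ± 0.06 (SE; limma adjusted p = 0.138). In both the fasted arrays lay below all fed arrays. Grik1 passed without fasted replicate 3, at -0.13 (limma adjusted p = 0.0470), and reached 0.422 under another setting. Grik2 gave -0.10, Grik5 -0.02 and Grik4 0.12, and the family median was -0.10. Of the delta receptors, which organise synapses by binding cerebellins, 0 of 2 passed and 0 had an unadjusted p under 0.05. Grid1 gave 0.07 and the partner gene Grid2ip 0.07.

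GABA-A receptors are pentamers, usually of alpha, beta and gamma subunits. Of 16 measured genes 1 rose and 1 fell, with a median of 0.00, beside 9.46% higher and 8.96% lower over all genes tested. Among alpha genes Gabra2 differed by 0.05 (95% confidence interval -0.09 to 0.19), Gabra3 by 0.03 (-0.05 to 0.11), Gabra4 by -0.10 (-0.30 to 0.11) and Gabra5 by 0.08 (-0.04 to 0.19). Limma called 0 of the alpha genes, with 0 at an unadjusted p under 0.05. Among beta genes Gabrb1 differed by -0.05 (-0.15 to 0.04) and Gabrb2 by -0.05 (-0.15 to 0.05), and neither passed.

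Gabrg1, a gamma subunit found in parts of the basal forebrain and on glia, gave 0.13, 0.06, 0.01 and 0.17 in fasted and -0.12, -0.10, 0.00 and -0.12 in fed brain. The groups did not overlap, with fasted replicate 3 and fed replicate 3 nearest to each other. The difference was 0.18 ± 0.05 (SE over 4 arrays a group; limma adjusted p = 0.0396), 1.13-fold higher (95% confidence interval 1.05 to 1.22), at chr5:71143181-71143240 of mm9 (NM_010252). This probe is printed as 10 spots per array. With the replicate number as a block the adjusted p was 0.0944, and the call was lost when any 1 array other than fasted or fed replicate 3 was left out (0.0704 to 0.0988). A second, dimmer probe gave 0.22 ± 0.11 (SE; adjusted p = 0.212).

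The Gabrr subunits form GABA-gated channels best known from the retina. Gabrr2 gave -1.17, -1.28, -1.27 and -1.28 in fasted and -1.15, -1.05, -1.08 and -1.05 in fed brain. Fasted replicate 1 stood apart from the other fasted arrays and close to fed replicate 1, and the groups did not overlap. The difference was -0.16 ± 0.04 (SE over 4 arrays a group; limma adjusted p = 0.0302), 1.12-fold lower (95% confidence interval 1.05 to 1.2), at chr4:33182776-33182835 of mm9 (NM_008076). With the replicate block the adjusted p was 0.0823, and the call was lost when any 1 array other than fasted or fed replicate 1 was left out (0.0597 to 0.0771). Its neighbour Gabrr1 differed by -0.15 (95% confidence interval -0.32 to 0.02; adjusted p = 0.213).

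Gabrd, the subunit of extrasynaptic receptors that give tonic inhibition, gave -0.08 (95% confidence interval -0.23 to 0.06), and Gabrq (theta) gave 0.04 (-0.34 to 0.43). Gabre, the epsilon subunit, gave -3.95, -4.11, -4.10 and -3.69 in fasted and -3.82, -3.58, -3.65 and -3.55 in fed brain. Fasted replicate 4 overlapped the fed arrays, and the difference of -0.31 ± 0.10 (SE; limma adjusted p = 0.0738) did not pass. Without fasted replicate 4 it was -0.40 (adjusted p = 0.0212), and over the alternatives the adjusted p reached 0.444. Of these 3 genes limma called 0, with 1 at an unadjusted p under 0.05.

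Most GABA-A genes lie in clusters, and members of a cluster shared a direction in some and not in others. On chromosome 4, Gabrr2 fell and Gabrr1 gave -0.15. On chromosome 5 of mm9, Gabrg1 rose while Gabra2, Gabra4 and Gabrb1 differed by 0.05, -0.10 and -0.05. On chromosome 7, Gabrg3 and Gabra5 both gave 0.08, with the same sign. Those of the X chromosome, Gabre, Gabra3 and Gabrq, gave -0.31, 0.03 and 0.04. Apart from Gabrg1 and Gabrr2 none of these passed.

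Several probes above the filter were available for 18 member genes. In 10 of them all probes had the same sign, and in 0 did probes pass in opposite directions. The widest disagreement was Gabrg3, where a dim probe at chr7:64434940-64434999 gave 0.95 ± 0.61 (SE; adjusted p = 0.322) beside 0.08 and 0.01. That probe was well above background on 4 fasted and 2 fed arrays, and its fed values ranged from -6.94 to -4.03. When a gene was given the mean of its probes instead, Grin2a differed by 0.19 (adjusted p = 0.149) and Gabrg1 by 0.20 (0.0975), and neither passed.

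**Figure D3:**
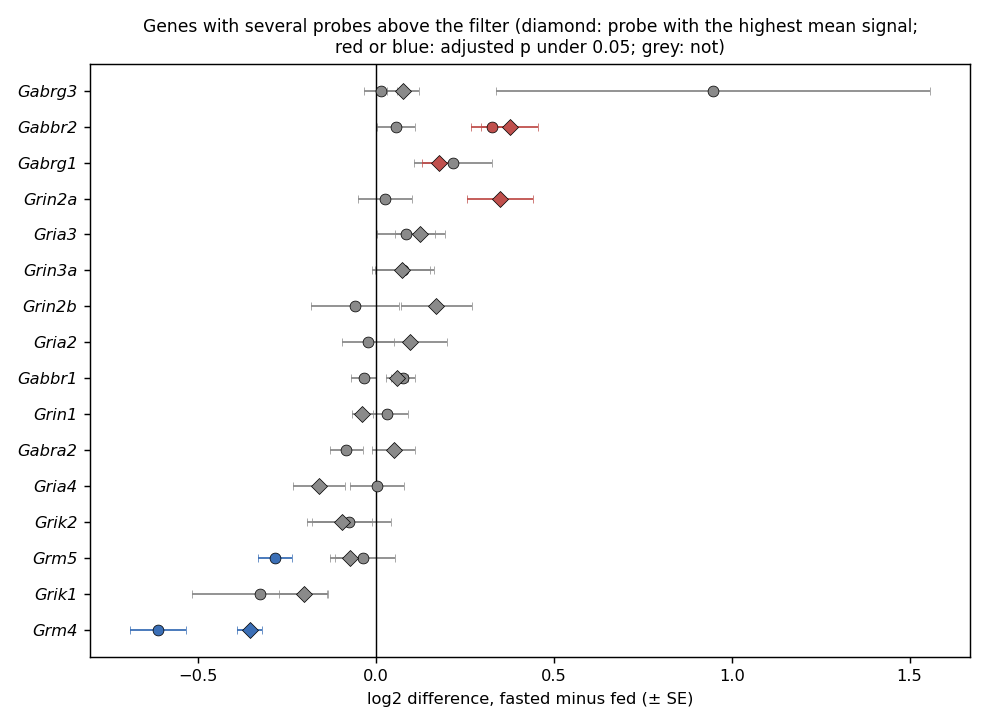
Log2 difference (fasted minus fed, ± SE, 4 arrays per group) of every probe above the filter for 16 of the 18 genes with several such probes. Both Grm4 probes and 2 of 3 Gabbr2 probes passed, while for Grin2a and Grm5 1 probe passed and the others lay near 0.

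Ionotropic and metabotropic receptors are set side by side in counts. Of 34 measured ionotropic genes 4 rose and 1 fell (14.7%), with a median difference of 0.04. Of 9 measured metabotropic genes 1 rose and 3 fell (44.4%), with a median of -0.02. Over all genes tested 18.4% passed, so the ionotropic share lies near that of the array, and the metabotropic share rests on 4 genes. Whether the classes differ was not tested. Within glutamate receptors, 3 of 18 ionotropic genes rose and 0 fell (median 0.07), and 0 of 7 metabotropic genes rose and 3 fell (median -0.07). The ionotropic count was sensitive to the arrays used: it was 1 without fasted replicate 2, fed replicate 2 or fed replicate 4, 2 without fasted replicate 1 or fed replicate 3, and 3 without fasted replicate 4 or fed replicate 1, and 3 with the replicate block. The metabotropic count was 4 in each of these fits.

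Grm2, Grm3, Grm4, Gria1 and Gabbr2 passed in every fit that used both slides. Over those fits the difference of Grm3 ranged from -0.45 to -0.40, of Grm4 from -0.48 to -0.33, of Grm2 from -0.23 to -0.18, of Gria1 from 0.15 to 0.20 and of Gabbr2 from 0.25 to 0.43. The largest adjusted p among them was 0.0122 for Grm3 and 0.0478 for Gabbr2. Each slide holds 2 arrays of each group. The genes were called on these same arrays, so the slides describe the spread of a difference and are no independent repeat. On slide 1 and slide 2, Grm3 gave -0.46 and -0.40, Grm4 -0.34 and -0.37, Grm2 -0.20 and -0.20, Gabbr2 0.28 and 0.47, and Gria1 0.19 and 0.16. All 9 genes that passed had the same sign on both slides, as did 37 of the 44 members. A full difference is the mean of the 2 slide differences, so a shared sign is close to given for genes that passed. The share of all genes with the same sign was not computed. Groups of arrays did not overlap for 13 of 44 members (29.5%), beside 26.9% of all genes tested. Within 1 slide, limma called 0 members, while 10 members on slide 1 and 9 on slide 2 had an unadjusted p under 0.05. The share of all genes under that value was not computed.

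**Figure D4:**
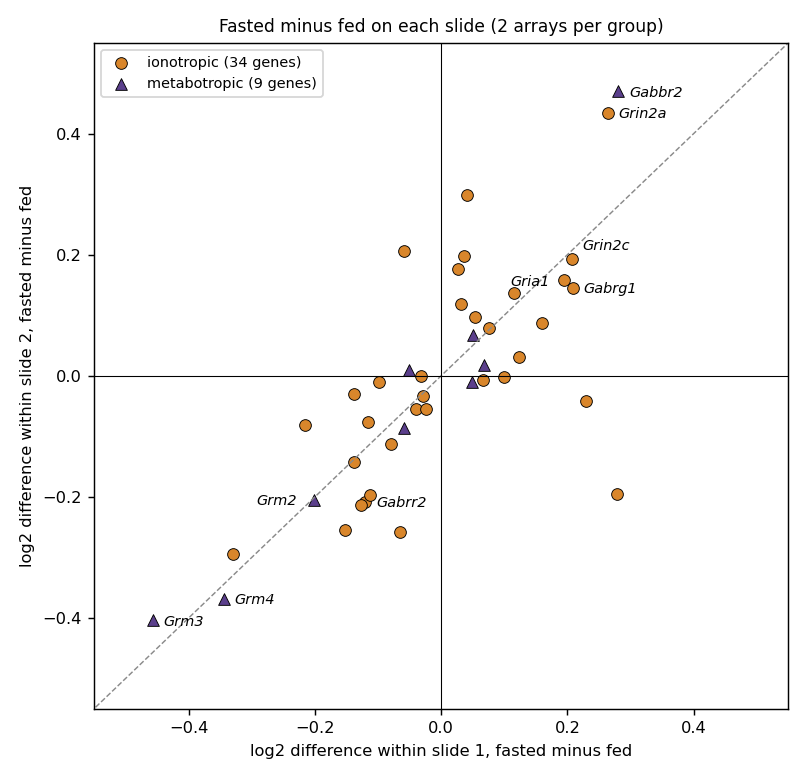
Log2 difference (fasted minus fed) on slide 1 against slide 2, each from 2 arrays per group, for 34 ionotropic genes (circles) and 9 metabotropic genes (triangles); the dashed line marks equal values. The labelled points are the 9 genes that passed over all arrays, which lie in the lower left or upper right quadrant, and Grm3, Grm4 and Grm2 lie near the line.

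Proteins that bind, anchor or feed these receptors were described from lists set out beside the members. The counts of each list stand beside 9.46% higher and 8.96% lower over all genes tested. No share of all genes with an unadjusted p under 0.05 was computed. Of 14 auxiliary subunits of AMPA receptors, such as the Cacng and cornichon proteins, limma called 0, and 4 had an unadjusted p under 0.05. The nearest were Cacng4 at -0.14 (limma adjusted p = 0.0594) and Gsg1l at -0.18 (limma adjusted p = 0.0878). Of 6 partners of kainate and delta receptors, 1 fell: Neto2, an auxiliary subunit of kainate receptors, at -0.20 ± 0.03 (SE; limma adjusted p = 0.00607). Neto2 gave -0.68 to -0.62 in fasted and -0.49 to -0.44 in fed brain, with no overlap.

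Among 14 measured scaffold genes of glutamate synapses 2 rose and 3 fell, with a median of -0.03. Pick1, which binds AMPA receptors and controls their trafficking, rose by 0.36 ± 0.06 (SE; limma adjusted p = 0.00839), from -1.45 to -1.22 in fed to -1.03 to -0.87 in fasted brain. As the mean of its probes it rose by 0.18 (adjusted p = 0.0206). Dlgap1, a postsynaptic density protein, rose by 0.22 ± 0.03 (SE; limma adjusted p = 0.00530), from 1.93 to 2.03 in fed to 2.19 to 2.23 in fasted brain, but gave 0.10 (adjusted p = 0.141) as the mean of its probes. Shank3 fell by 0.15, Homer2, which ties group I metabotropic receptors to calcium stores, by 0.19 and Dlg1 by 0.11, with adjusted p of 0.0361, 0.0412 and 0.0489. These 3 calls were lost when most single arrays were left out, with adjusted p from 0.0519 to 0.117. They were also lost with the mean of a gene's probes (limma adjusted p of 0.358, 0.102 and 0.0968, in that order). With normexp background correction they were lost too (0.0862, 0.0765 and 0.176). With the replicate block Homer2 gave 0.0514 and Dlg1 0.0701.

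At inhibitory synapses 2 of 16 scaffold and partner genes rose and 0 fell, with a median of 0.03. Plcl1, which binds the GABA-A receptor and its phosphatases, gave -0.61, -0.64, -0.52 and -0.69 in fasted and -0.95, -0.97, -0.97 and -1.08 in fed brain. All fasted arrays lay above all fed arrays, and the difference was 0.38 ± 0.05 (SE over 4 arrays a group; limma adjusted p = 0.00327). Gphn, which encodes the anchoring protein gephyrin, rose by 0.12 ± 0.03 (SE; limma adjusted p = 0.0334, and 0.0735 with the replicate block). Its call was lost when any 1 array other than fasted replicate 3 or fed replicate 4 was left out (0.0608 to 0.0841).

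Of 10 genes of glutamate release and uptake 2 rose, both of the astrocyte cycle that clears glutamate. Glul, glutamine synthetase, rose by 0.23 ± 0.05 (SE; limma adjusted p = 0.0176), with 4.97 to 5.14 in fasted and 4.75 to 4.87 in fed brain. Slc1a2, the main glutamate transporter, rose by 0.32 ± 0.08 (SE; limma adjusted p = 0.0304). Its call was lost without any 1 array other than fed replicates 1 and 3 (0.0529 to 0.0775), with the mean of its probes (0.21, adjusted p = 0.0775) and with normexp background correction (0.0545). Of 9 genes of GABA synthesis, uptake and breakdown 1 rose and 1 fell: the betaine and GABA transporter Slc6a12 rose by 0.44 ± 0.12 (SE; limma adjusted p = 0.0381) and the GABA transporter Slc6a11 fell by 0.25 ± 0.07 (SE; limma adjusted p = 0.0354). Slc6a12 lost its call without any 1 array (0.0517 to 0.0864), and Slc6a11 without any of 5 arrays (fasted replicates 2 and 3, fed replicates 1, 2 and 4; 0.0571 to 0.0865) and with the replicate block (0.0506). Without a filter on dim probes Dlg1, Homer2, Shank3, Gphn, Slc1a2, Slc6a11 and Slc6a12 also lost their calls (0.0677 to 0.119).

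Markers of the cells and regions a brain holds were read on the same arrays, as the summed linear signal of a list in multiples of an array's 75th percentile. The brightest genes of a list weigh most in such a sum. Their counts stand beside 9.46% higher and 8.96% lower over all genes tested. Of 10 neuronal markers limma called 0, with 1 at an unadjusted p under 0.05, and their summed signal was 254 to 267 in fasted and 243 to 260 in fed brain. Of 7 astrocyte markers, cells that make Grm3, 1 rose (Slc1a2) and 1 fell (Aqp4), and the sum was 49.8 to 52.2 in fasted and 45.4 to 48.0 in fed brain. Of 6 oligodendrocyte markers 3 fell (85.7 to 94.6 in fasted, 95.7 to 103 in fed), and of 5 microglial markers 4 fell (16.0 to 18.3 in fasted, 19.1 to 20.8 in fed). Of 2 oligodendrocyte precursor markers 1, Pdgfra, rose by 0.25, with sums of 1.6 to 1.73 in fasted and 1.52 to 1.56 in fed brain. Of 6 markers of hippocampus and cortex 1, Wfs1, rose, with sums of 19.5 to 20.9 in fasted and 16.6 to 18.1 in fed brain. Sums of the lists of astrocytes, oligodendrocytes, their precursors, microglia and hippocampus with cortex did not overlap between groups, and their part in the receptor differences was not tested.

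The cerebellum is the part of the brain where Grm4, Grin2c and Gabra6 are best known. Some markers that define its granule cells were not detected: of 6 listed, Cbln3 and Barhl2 were well above background on 0 of the 8 arrays, as was Gabra6, and of the 4 others limma called 0, with 0 at an unadjusted p under 0.05. Summed signal of these 4 was 14.4 to 15.5 in fasted and 14.7 to 16.7 in fed brain. Most of it came from Etv1 and Zic1, with scaled log2 signals of 2.91 to 3.17 and 2.50 to 2.85. Neurod1 (-2.43 to -1.96) and Zic2 (-2.12 to -1.53) added little. Of 5 Purkinje cell markers limma called 0, with 0 at an unadjusted p under 0.05 (30.0 to 32.6 in fasted, 27.9 to 30.6 in fed). That sum came mostly from Itpr1 (4.16 to 4.35) and Pvalb (3.09 to 3.40). Pcp2 (-2.31 to -1.94) and Car8 (-3.67 to -3.16) added little. Both sums thus follow their brightest genes, and the cerebellar content of the samples was not tested.

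Promoter stretches of 250 bases were held for 33 of the 48 members in the RefSeq table. Members were counted by gene, on the first stretch held, and the background by stretch. The shares are therefore not on fully like terms, and they were not compared by a test. The GC box (GGGCGG or CCGCCC) was found in 18 of these 33, beside 32.7% of all 32851 promoters of that table. A cAMP response element (TGACGTCA) was found in 0, beside 1.55%, a TATA box (TATAAA, both strands) in 3, beside 12.4%, an E-box (CACGTG) in 1, beside 6.02%, and the glucocorticoid receptor half-site AGAACA, both strands, in 3, beside 16.1%. Grm4, Gria1 and Grin2a passed but had no stretch. Of the 6 genes that passed and had such a stretch, 4 held a GC box (Gabbr2 and Grin2c, which rose, and Grm2 and Grm3, which fell), and 1, Gabrr2, held AGAACA. Their base composition differed widely, from 35.6% GC for Gabrg1 to 80.8% for Gabbr2, and its part in these counts was not tested.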

How the data were processed

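RNA from mouse brain, 4 fasted and 4 fed samples grouped by their titles, had been labelled with Cy3 and hybridised to single-colour Agilent arrays, per the labels. The deposited scanner files give each spot as an intensity, made with Feature Extraction 11.0.1.1 per the file headers. Version 10.10.1.1 is given for Agilent Feature Extraction in the submitters' processing notes. A series table deposited beside them holds a ratio, which equals the scaled signal divided by a factor constant for each probe, of unknown baseline (column medians 0.970 to 1.02). It served only as an alternative.

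Processed signals, without control and outlier spots, were taken to log2, each array's 75th percentile (1651 to 1944) was subtracted, and replicate spots were averaged. Probes well above background on at least 4 of 8 arrays were kept, 26066 of 39429, each counted there where at least 0.5 of its spots were. limma 3.58.1 (R 4.3.3; lmFit, then eBayes; two-sided) tested fasted minus fed. P-values were adjusted by Benjamini-Hochberg over all kept probes, and 0.05 was the threshold. Where a gene had several kept probes, the one brightest on average stood for it. Names come from the array, updated where the accession matched RefSeq (27427 probes). Probe positions refer to mm9, per the file headers, and the exon under a probe was not analysed here.

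The rule for naming takes every gene of the name pattern. Members past the threshold are given by array, others by difference or range, and from each pathway list up to 4 genes with the smallest p were open to naming. Members and lists were chosen with earlier results of these data known. The procedure was tested on simulated data. Some members count in the totals but are not reported here one by one.

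Pairing by the titles' replicate numbers was checked on deviations from the group means. A fasted and a fed array with the same number had a correlation of 0.18 to 0.29, above 0.1 in each case, so pairing is possible but not shown. With other numbers it was 0.05 to 0.27 within a slide and -0.39 to -0.10 between slides. Deviations from a group's mean cancel out over its arrays. Positive values within a slide therefore bring negative values between slides by construction, and the negative sign is not a separate result. Same-numbered arrays share a slide and neighbouring positions, which cannot be told apart from pairing. The p-values given are from the fit without pairs unless a block is named. With the replicate number as a block 4 receptor genes were higher and 3 lower. Alternatives changed the scaling, background, filter, probe choice, blocks, slides and arrays.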

Additional observations from a re-analysis of the deposited data

Results flagged for a closer look

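In each group of 4 arrays the highest or lowest value was set against the rest of its group, and 6 of 88 such groups had 1 array far from the other 3. About 5% of groups are picked out in this way when nothing is wrong, which is close to what was seen. Gria2 in fasted replicate 3 was -0.32, beside 0.13 to 0.16 in the other fasted arrays. Gabrg3 in the same array was 1.04, beside 0.87 to 0.89. Gabrr2 in fasted replicate 1 was -1.17, beside -1.28 to -1.27, and is the only one of these genes that passed the threshold. Grin2d in fasted replicate 2 was -3.77, beside -3.47 to -3.45, and Grik3 in fasted replicate 1 was 0.46, beside 0.61 to 0.62. Grik2 in fed replicate 3 was -2.42, beside -2.66 to -2.65.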

How the results depend on the processing

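The counts of 5 receptor genes higher and 4 lower, and of 5 ionotropic and 4 metabotropic genes past the threshold, were recomputed under 20 settings. All 9 genes kept their sign in all of them, as did 25 of the 35 that did not pass. Settings that changed only the filter or the blocks left the differences of these 9 genes as they were. A kept sign was therefore fixed in advance there, and all settings share the same arrays. With median scaling 3 genes were higher and 2 were ionotropic. Without a filter on dim probes 2 were higher and 1 ionotropic. With the mean of a gene's probes 3 were higher and 3 ionotropic, and with normexp background correction 3 were ionotropic. The median ionotropic difference, 0.04, was 0.0022 with normexp, 0.0066 for probes above background on all 8 arrays, 0.0015 on slide 1 alone and -0.0084 on slide 2 alone. With either slide alone 0 genes were higher, 0 lower, 0 ionotropic and 0 metabotropic. Leaving out 1 array gave 2 to 5 higher, 1 to 5 ionotropic and an ionotropic median of -0.0074 to 0.0403. With the replicate number as a block 4 genes were higher, 3 lower, 3 ionotropic and 4 metabotropic, the calls of Gabrg1 and Gabrr2 being lost. Among listed partners Cacng3 (adjusted p = 0.041), Cbln4 (0.0261) and Kctd8 (0.0469) passed with that block. Gphn, Homer2, Dlg1 and Slc6a11 were lost with it, and it changed no other call among the members and the partners for which alternatives were computed. Over all genes, 51.4% of those past the threshold were higher in fasted brain, 58.8% with median scaling, 52.0% with quantile normalization and 49.7% with normexp. The cause of these shifts was not tested. The number of arrays, 4 per group, and the distance of dim probes from background limit what could be seen.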

Other observations

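Fed replicates 2 and 4, both at position 4 of their slide, gave the lowest values of Gabbr2 (0.32 and 0.27), Grin2a (0.68 and 0.53), Grin2b (1.30 and 1.27) and Slc1a2 (3.0 and 2.93). These genes were noticed together after their values were seen, and the part of array position was not tested.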
